A study of Homo sapiens with 6 samples.

Results

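The genes described here encode 4 fibroblast growth factors (FGF1, FGF2, FGF5 and FGF7), the receptor FGFR1, 3 chains of platelet-derived growth factor (PDGFA, PDGFB and PDGFC) and the receptors PDGFRA and PDGFRB. They were taken by symbol from the deposited table, which held all 10 of them among 19475 gene symbols, and all 10 passed the filter on low counts. The RNA came from MH7A, a line of synovial fibroblasts from a rheumatoid joint that is grown in culture without the other cells of the joint. Both groups received TNFα at 10 ng/ml, an inflammatory cytokine, and there were 3 libraries each. The TNF group (replicates 2, 8 and 14) had TNFα alone, and the LED group (replicates 4, 6 and 10) was also lit with a 630 nm red LED for 15 min, 3 times. Neither cells without TNFα nor cells given light alone were part of the design, so the comparison asks only what differed with light in TNFα-treated cells.

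FGFs are secreted or released proteins that bind heparan sulphate chains on the cell surface and bring pairs of FGF receptors together. PDGFs are dimers of A, B, C or D chains, and each dimer brings receptors of the alpha and beta types together in pairs. Both receptor families are tyrosine kinases that signal through RAS and ERK and through PI3 kinase. In the joint lining they are known for driving growth and migration of synovial fibroblasts, which carry both PDGF receptors and make several FGFs themselves.

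Light-exposed cells had lower transcript levels of FGF5, a secreted FGF of connective tissue, and of PDGFB, the chain of PDGF-BB, without either difference passing the test over all genes. FGF5 was 1.83-fold lower and PDGFB 3.15-fold lower with LED. The other 8 genes differed by 1.35-fold or less in either direction. Of the 10 genes none was called at an edgeR adjusted p under 0.05, whereas 5.17% of the 13794 genes tested were called, 2.44% higher and 2.73% lower. At an unadjusted p under 0.05 there were 2 of 10, FGF5 and PDGFB, against 22.7% of all tested genes, so their number was close to the background. DESeq2 called both of them and limma-voom neither. Over all genes DESeq2 called far more than edgeR, 874 higher and 879 lower against 336 and 377, and limma-voom called 321 and 338. The groups did not overlap for 3 of 10, each lower with LED (FGF5, PDGFB and FGFR1), where 16.2% of tested genes were lower without overlap and 32.4% did not overlap in either direction. The median log2 fold change was -0.11 over the 10 genes and 0.01 over all tested genes.

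**Figure D1:**
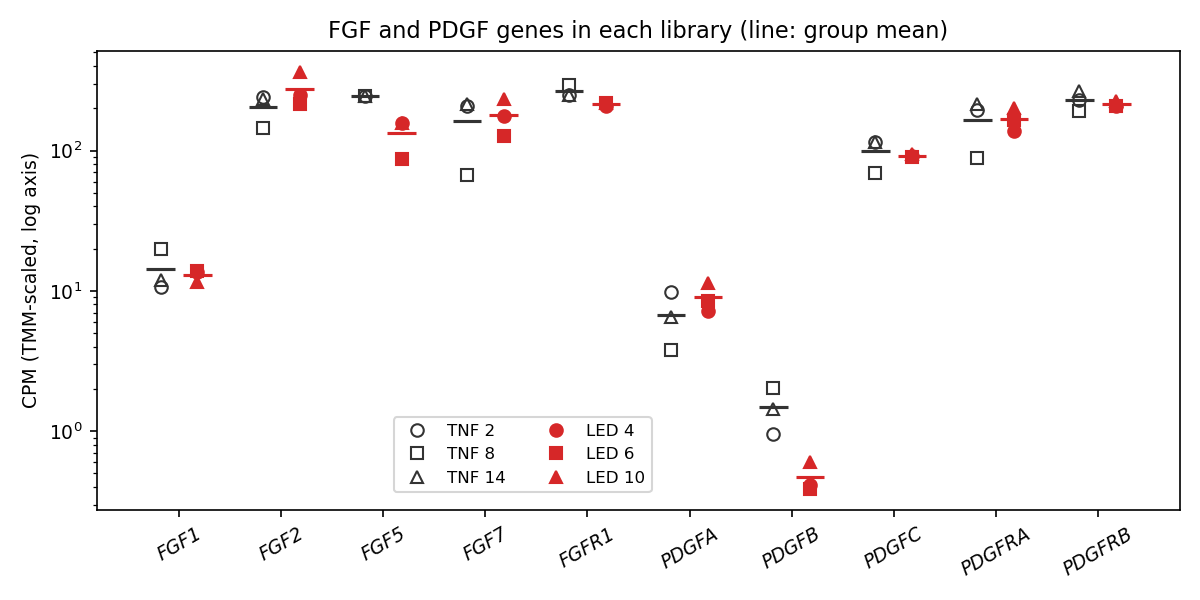
Level of each gene in every library, in CPM after TMM scaling, on a log axis. Open dark symbols are the TNF libraries, filled red symbols the LED libraries, and lines the group means. FGF5, FGFR1 and PDGFB have their LED points below all TNF points, and TNF replicate 8 (open square) sits low for FGF7, PDGFRA, PDGFA, PDGFC and FGF2.

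Levels are given as CPM, the deposited estimated count of a gene after all libraries were brought to a common total by TMM scaling. Values of single libraries are listed for TNF in the order of replicates 2, 8 and 14 and for LED in the order 4, 6 and 10. FGF5 had 244, 245 and 243 CPM with TNF and 157, 86.6 and 157 CPM with LED. All LED libraries were therefore below all TNF libraries, and LED replicate 6 was lowest. The log2 fold change was -0.87 ± 0.23 (SE, n = 3 each), with a 95% interval of -1.40 to -0.34 and an edgeR adjusted p of 0.0641. Without LED replicate 6 the difference was -0.64 (adjusted p = 0.109), and across single omissions of a library the adjusted p lay between 0.0893 and 0.157. The spread of FGF5 among the TNF libraries was only 0.291% of its mean (SD over mean), against a median of 20.01% for all tested genes, and 0.0145% of tested genes had a smaller one. Counting error alone would give 1.21% to 1.38% in those libraries, so the closeness of these 3 values is not a measure of the precision of FGF5.

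FGF2, the basic FGF, has no classical secretion signal and is stored in cells and matrix. It had 240, 144 and 233 CPM with TNF and 249, 215 and 365 CPM with LED. The groups overlapped, with the highest value in LED replicate 10 and the lowest in TNF replicate 8. Its log2 fold change was 0.42 ± 0.26 (95% interval -0.16 to 1.01, edgeR adjusted p = 0.377). An antisense neighbour, NUDT6, shares 804 exon bases with FGF2 on the opposite strand, and no source used here gives the strand setting behind the counts. NUDT6 stood at 1.30 to 3.02 CPM, far below FGF2.

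The balance between these 2 ligands differed between the groups. To set different genes side by side, CPM was divided by the length of annotated exons in kilobases. On this scale FGF2 was at 0.870, 0.522 and 0.848 times the level of FGF5 with TNF. With LED it was at 1.40, 2.20 and 2.05 times the level of FGF5. FGF5 was thus the more abundant transcript in all 3 TNF libraries and FGF2 in all 3 LED libraries, also when the longest coding transcript was used as the length (0.456 to 0.760 against 1.23 to 1.92). This ratio was chosen after its values were seen and was not tested. Of the summed level of FGF1, FGF2, FGF5 and FGF7, FGF5 made up 37.2%, 53.7% and 37.0% with TNF and 28.4%, 21.3% and 22.3% with LED. FGF2 made up 28.0% to 32.4% in the TNF libraries and 39.8% to 46.9% in the LED libraries.

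**Figure D2:**
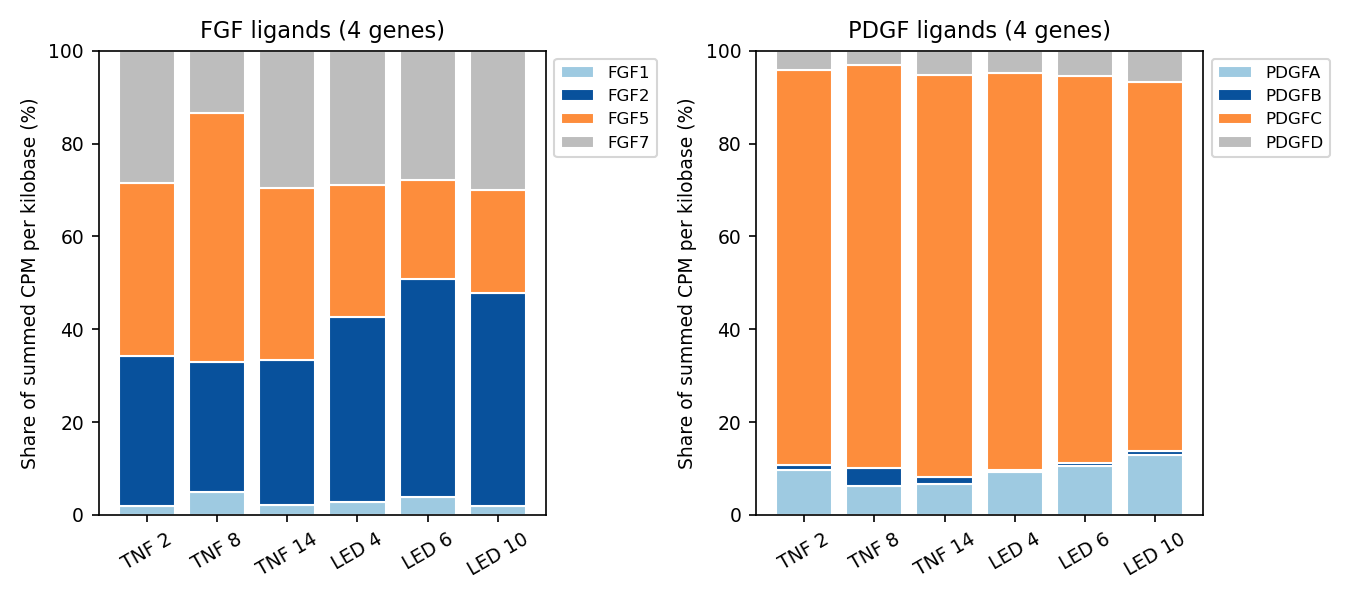
Share of each gene in the summed level (CPM per kilobase of annotated exons) of 4 FGF ligands, left, and 4 PDGF ligands, right, in each library. The FGF5 share is 37.0% to 53.7% in the TNF libraries and 21.3% to 28.4% in the LED libraries, and PDGFC takes 79.6% to 86.8% of the PDGF ligands in every library.

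FGF5 and FGF2 lie on chromosome 4. The bases just before their starts are shown because the ratio of these transcripts, which was not tested, did not overlap between the groups. Whether these bases had a part in the levels was not tested. The FGF5 stretch is chr4:80266338-80266587 and the FGF2 stretch chr4:122826581-122826707, both on the plus strand of GRCh38.p14, from RefSeq. The FGF5 stretch ends at the base before its first RefSeq start, and the FGF2 stretch ends where the earliest annotated exon begins. Capitals mark the GC box, the letters GGGCGG on either strand, which is bound by SP1-type factors.
FGF5: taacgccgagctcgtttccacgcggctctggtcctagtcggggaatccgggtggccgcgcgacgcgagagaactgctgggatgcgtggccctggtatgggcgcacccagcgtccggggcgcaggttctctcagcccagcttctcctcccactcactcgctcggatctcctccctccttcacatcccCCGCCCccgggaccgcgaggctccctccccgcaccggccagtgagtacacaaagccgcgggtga
FGF2: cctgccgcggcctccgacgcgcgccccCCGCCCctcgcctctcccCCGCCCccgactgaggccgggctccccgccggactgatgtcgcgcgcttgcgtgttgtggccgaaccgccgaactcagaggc

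The FGF5 stretch held 1 GC box and the FGF2 stretch 2, and 42.6% of the 35116 RefSeq promoter windows of 250 bases held at least 1. FGF5 had 68.8% G and C with 27 CpG pairs over its 250 bases, and the FGF2 stretch had 78.0% over 127 bases. Neither window of 250 bases at these starts contained the letters TGANTCA of AP-1 (6.57% of windows), the heat shock element GAANNTTC or TTCNNGAA (11.6%), or TGACGTCA of the cAMP response element (1.65%), searched on both strands. A second annotated FGF5 start, inside the gene, had the TATA box letters TATAAA between 215 and 208 bases before it. At any position in the window, 10.7% of windows held these letters. Such matches describe the letters only.

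FGF7, the keratinocyte growth factor that fibroblasts make for epithelial cells, varied most among the TNF libraries. It had 208, 67.4 and 215 CPM with TNF and 178, 126 and 234 CPM with LED. The groups overlapped, and TNF replicate 8 lay 3.14-fold below the mean of the other TNF libraries. The log2 fold change of 0.13 ± 0.40 (95% interval -0.77 to 1.03, edgeR adjusted p = 0.879) turned to -0.24 without TNF replicate 8 and to -0.11 without LED replicate 10. FGF1, the acidic FGF that binds all FGF receptors, had 10.7, 20.04 and 11.9 CPM with TNF and 13.6, 13.8 and 11.5 CPM with LED. TNF replicate 8 was the high library here, and the other 5 lay close together. The log2 fold change of -0.13 ± 0.25 (95% interval -0.70 to 0.43, adjusted p = 0.800) turned to 0.20 without TNF replicate 8.

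FGFR1 is the main receptor for FGF2 on fibroblasts. It had 247, 293 and 250 CPM with TNF and 207, 217 and 217 CPM with LED. All LED libraries lay below all TNF libraries, and the LED values spread by only 2.95% of their mean. FGFR1 had a log2 fold change of -0.30 ± 0.16 (95% interval -0.66 to 0.05, edgeR adjusted p = 0.300), and it stayed between -0.36 and -0.22 in the 16 alternatives computed. Among the 4 FGF receptor kinases FGFR1 took 93.1% to 96.1% of the summed level per kilobase in the TNF libraries and 90.4% to 91.4% in the LED libraries. FGFR4 took 1.86% to 5.15% and 6.82% to 8.12%, FGFR3 took 2.71% or less in all libraries, and FGFR2 was listed at 0 throughout.

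PDGFB encodes the chain that as a BB dimer binds both PDGF receptors. It was the least abundant of the 10 genes, with 0.959, 2.04 and 1.43 CPM with TNF. With LED it had 0.415, 0.388 and 0.602 CPM. The LED libraries were all below the TNF libraries, and TNF replicate 8 was highest. The log2 fold change was -1.65 ± 0.44 (95% interval -2.64 to -0.67), with an edgeR adjusted p of 0.0613. These levels rest on about 27, 52 and 31 sequenced fragments in the TNF libraries and 11, 10 and 14 in the LED libraries, if 4 units of the deposited count stand for 1 fragment. The exact Poisson 95% intervals, which cover counting error only, ran from 0.632 to 1.40 CPM in TNF replicate 2 and from 0.329 to 1.01 in LED replicate 10. The intervals of these nearest libraries of the 2 groups overlapped. Without TNF replicate 2 the gene was called (-1.90, adjusted p = 0.0465), and in the other single omissions the adjusted p reached 0.189. The difference was -1.35 without TNF replicate 8.

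PDGFA, whose chains form the AA dimer that binds only the alpha receptor, had 9.76, 3.76 and 6.54 CPM with TNF. The LED libraries had 7.24, 8.48 and 11.5 CPM. The groups overlapped, with TNF replicate 8 lowest and LED replicate 10 highest. PDGFA had a log2 fold change of 0.44 ± 0.34 (95% interval -0.32 to 1.19, edgeR adjusted p = 0.486), and it was 0.15 without TNF replicate 8. Per kilobase PDGFA stood at 9.21, 1.67 and 4.14 times the level of PDGFB with TNF and at 15.8, 19.8 and 17.2 times with LED. With the longest coding transcript as the length, PDGFA was at 15.4, 2.80 and 6.94 times with TNF. The LED values on that length were 26.4, 33.2 and 28.9 times, so the size of the ratio depends on the length used. The LED ratios were all above the TNF ratios. This ratio too was chosen after its values were seen and was not tested.

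The PDGFA promoter is known for a GC-rich stretch on which the zinc finger factors SP1 and EGR1 compete. It is shown because EGR family transcripts are among the pathway genes described further on. The 100 bases before one of the 4 RefSeq starts of PDGFA, chr7:519847-519946 on the minus strand of GRCh38.p14, are printed with the letters GCGNGGGCG of EGR1 in capitals.
PDGFA: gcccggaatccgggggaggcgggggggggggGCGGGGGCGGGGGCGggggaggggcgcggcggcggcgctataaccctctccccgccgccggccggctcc

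The capitals hold 2 overlapping matches, and these also overlap GC boxes. Windows with the EGR1 letters made up 8.41% of all windows. The 7 genes with a window in the RefSeq table had 15 windows, and 2 held these letters, both of PDGFA. Of those 7 genes 6 had a GC box, all but FGF7, whose window had 38.4% G and C against a median of 58.0%. The AP-1 letters were found for FGF1 and PDGFRA (2 of 15 windows), and the heat shock letters for FGF1 (1 of 15). EGR1 itself had 12.9, 8.63 and 7.26 CPM with TNF and 82.9, 61.2 and 9.67 CPM with LED. Its means were 9.61 ± 2.97 and 51.3 ± 37.6 (SD, n = 3 each), with overlapping groups and an edgeR adjusted p of 0.0569. The log2 fold change of EGR1 was 2.41 ± 0.62. DESeq2 called it (adjusted p = 0.0316) and limma-voom did not (0.142). Of 16 alternatives 3 called it, 1 of them an edgeR fit with a single library left out. Over such omissions the edgeR adjusted p ran from 0.00181 to 0.210, so the call depends on single libraries. LED replicate 10 had EGR1 within the TNF range. EGR1 was chosen after its values were seen, and whether it had a part in the PDGFA levels was not tested.

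PDGFC, a chain that is secreted with a CUB domain and must be cleaved to act, was the main PDGF transcript. It had 114, 69.5 and 115 CPM with TNF and 90.9, 89.6 and 94.8 CPM with LED. The LED values lay inside the TNF range, with TNF replicate 8 lowest. Its log2 fold change was -0.12 ± 0.21 (95% interval -0.60 to 0.36, edgeR adjusted p = 0.788). Without TNF replicate 8 it was -0.32 with an adjusted p of 0.141. Per kilobase PDGFC made up 79.6% to 86.8% of the 4 PDGF chains, PDGFA 6.33% to 13.0%, PDGFD 3.11% to 6.63% and PDGFB 0.537% to 3.79%. The PDGFB share was 1.06% or more in each TNF library and 0.752% or less in each LED library.

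PDGFRA, the receptor that binds A, B and C chains, had 194, 88.9 and 213 CPM with TNF. The LED libraries had 137, 166 and 202 CPM. TNF replicate 8 was lowest, and the remaining libraries of the groups overlapped. With a log2 fold change of 0.03 ± 0.31 (95% interval -0.66 to 0.72, edgeR adjusted p = 0.971), it did not pass, and the value turned to -0.27 without TNF replicate 8, to -0.12 without LED replicate 10 and to -0.015 with scaling by library total only. AC058822.1, an annotated gene on the same strand, shares 1533 exon bases with PDGFRA, 15.8% of its exon length, so counts in that part are uncertain. PDGFRB, the receptor for the B and D chains, had 228, 192 and 264 CPM with TNF and 206, 208 and 226 CPM with LED. The groups overlapped, with the widest values in the TNF group. On the log2 scale the difference was -0.09 ± 0.17 (95% interval -0.48 to 0.30, adjusted p = 0.795), and it was 0.024 without TNF replicate 14. Per kilobase PDGFRB exceeded PDGFRA in all 6 libraries, with 60.4% to 74.6% of the sum of both.

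**Figure D3:**
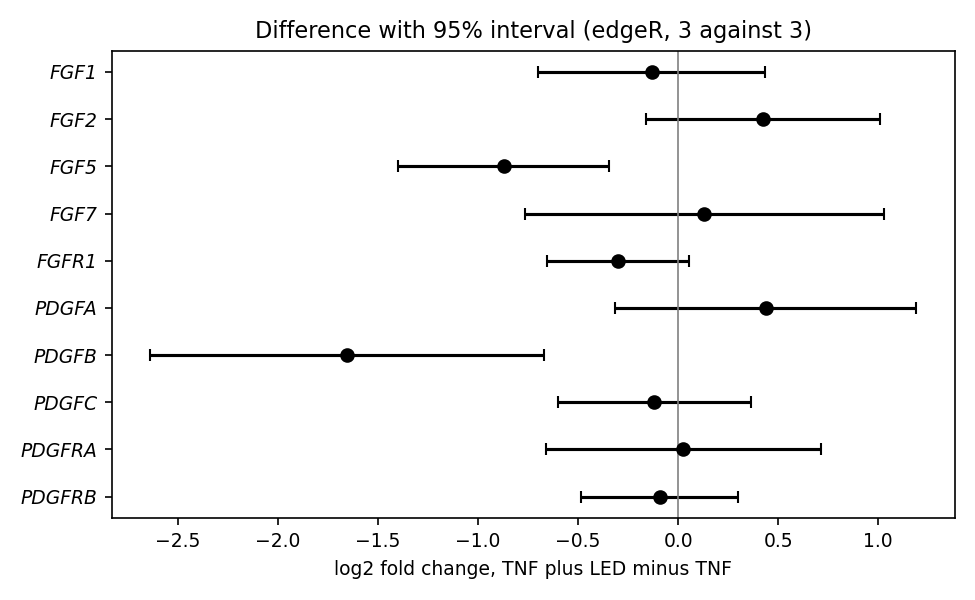
Log2 fold change of each gene, TNF plus LED minus TNF, from the edgeR fit across all genes, with its 95% interval. The intervals of PDGFB (-2.64 to -0.67) and FGF5 (-1.40 to -0.34) lie below 0, and those of the other 8 genes include it.

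Per kilobase of exon, the order of mean levels in the TNF libraries ran from FGF5 (40.7 ± 0.118 CPM per kilobase, SD, n = 3) to PDGFRB (31.9 ± 5.03), FGF2 (30.4 ± 7.88) and FGF7 (24.6 ± 12.5). FGFR1 (19.0 ± 1.87), PDGFC (17.8 ± 4.67) and PDGFRA (17.0 ± 6.88) followed. From PDGFRB to PDGFRA no neighbours in this order differed beyond their spread. FGF1 (2.70 ± 0.959), PDGFA (1.61 ± 0.723) and PDGFB (0.392 ± 0.144) formed the low end. With LED the order began with FGF2 (40.8 ± 11.6), PDGFRB (29.9 ± 1.49), FGF7 (26.9 ± 8.10) and FGF5 (22.3 ± 6.78). FGF2 was above PDGFRB in each LED library, while the ranges of PDGFRB and FGF7, and of FGF7 and FGF5, overlapped. PDGFB remained last at 0.124 ± 0.0310. When lengths came from the longest coding transcript, FGFR1 moved to rank 2 in the TNF group and 3 in the LED group, and FGF5 from rank 4 to 6 with LED, so both places depend on the length used.

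Much of the spread in this family lay within the TNF group. TNF replicate 8 was the lowest or the highest of the 6 libraries for all 10 genes, while this held for 59.2% of all tested genes. For FGF5 the margin was under counting error. In replicate 8 FGF7, PDGFRA, PDGFA, PDGFC and FGF2 lay 3.14-fold, 2.29-fold, 2.17-fold, 1.65-fold and 1.64-fold below the mean of replicates 2 and 14, and PDGFRB 1.28-fold below. FGF1, PDGFB and FGFR1 lay 1.77-fold, 1.71-fold and 1.18-fold above it. Dividing-cell transcripts moved with this library: 10 G2/M genes had a median deviation from their 6-library mean of 0.82 on the log2 scale in replicate 8, against 0.26 and 0.52 in replicates 2 and 14 and -0.42, -0.66 and -0.60 with LED. A list of 10 heat shock genes stood at -1.70, -2.15 and -2.08 with TNF and at 2.05, 2.58 and 1.46 with LED. LED replicate 6 had the highest heat shock value among the LED libraries. It also had their lowest FGF5, FGF7, FGF2, PDGFB and PDGFC and their highest FGF1, with FGFR1, PDGFA, PDGFRA and PDGFRB in between. This library was the lowest of the 6 for 23.6% of all tested genes and the highest for 25.2%. Among the TNF libraries, replicate 8 had the lowest heat shock value and also the lowest FGF7 and FGF2. Whether dividing cells or the heat shock response had a part in the FGF and PDGF levels was not tested.

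**Figure D4:**
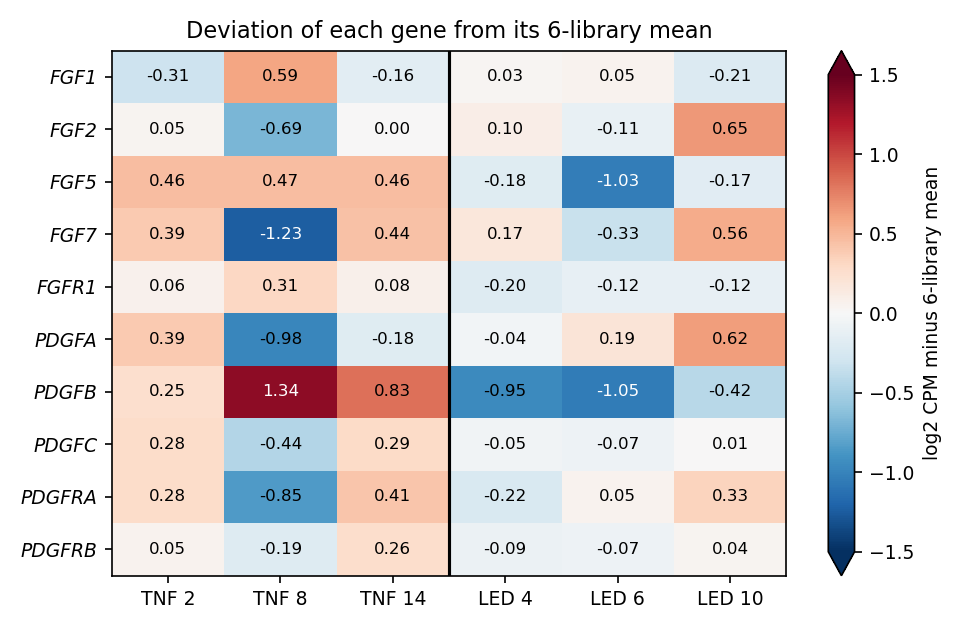
Log2 CPM of each gene in each library minus its mean over the 6 libraries. Colours run from blue (lower) to red (higher), and the black line parts the TNF from the LED libraries. TNF replicate 8 departs by -1.23 for FGF7, -0.98 for PDGFA and -0.85 for PDGFRA, and the 3 LED values are negative for FGF5, FGFR1 and PDGFB.

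The counts for the pathway lists below stand against these over all 13794 tested genes. By edgeR 5.17% were called, and 22.7% had an unadjusted p under 0.05. DESeq2 called 874 higher and 879 lower, and limma-voom 321 and 338. Other FGF ligands were low or at 0. Of 18 FGF ligand genes 8 were at 0 in every library and 6 were tested. By edgeR none of them was called (2 at an unadjusted p under 0.05), while DESeq2 called 1, FGF5, and limma-voom none. FGF18, the tested ligand with the lowest p beside the genes above, had 0.161, 0 and 0 CPM with TNF and 0.264, 2.13 and 0.187 CPM with LED (edgeR adjusted p = 0.143). Only LED replicate 6 stood well above the detection limit of 0.108 to 0.138 CPM, which corresponds to 3 fragments. Without TNF replicate 2 the gene was called (adjusted p = 0.0462), with TNF at 0 in both libraries. Of 3 tested FGF homologous factors, which stay inside the cell, none was called by edgeR, DESeq2 or limma-voom, and none had an unadjusted p under 0.05. FGF11 had the lowest p there, with means of 0.185 CPM with TNF and 0.320 with LED (edgeR adjusted p = 0.505). Of 5 tested FGF receptors and co-receptors edgeR called none (3 at an unadjusted p under 0.05), limma-voom none and DESeq2 1, FGFR4. FGFR4, a receptor better known from liver, had 4.77, 2.00 and 1.80 CPM with TNF and 5.38, 5.96 and 6.81 CPM with LED (log2 1.08 ± 0.37, adjusted p = 0.124). Its groups did not overlap, and it was called by DESeq2 (adjusted p = 0.0374) and by edgeR without TNF replicate 2 (1.66, adjusted p = 0.0181).

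Heparan sulphate proteoglycans hold FGFs at the surface and in the matrix. Of 11 tested carriers and proteoglycans edgeR called none (4 at an unadjusted p under 0.05), limma-voom none and DESeq2 1, with a median log2 fold change of -0.21. AGRN, the basement membrane proteoglycan agrin, had the lowest p in this list, at 660 ± 78.6 CPM with TNF and 440 ± 42.6 with LED (log2 -0.59 ± 0.17, edgeR adjusted p = 0.0847, DESeq2 adjusted p = 0.0224). None of 13 tested heparan sulphate enzymes was called by edgeR, DESeq2 or limma-voom (2 at an unadjusted p under 0.05 by edgeR), with NDST2, which sulphates the chains, at -0.56 ± 0.20 (adjusted p = 0.126). In the wider PDGF family of 8 tested genes edgeR called none (1 at an unadjusted p under 0.05), limma-voom none and DESeq2 1, PDGFB, and PDGFRL, a receptor-like protein without a kinase, was at -0.39 ± 0.21 (adjusted p = 0.302).

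Proteases that process PDGFs held the only decreases that passed edgeR among the pathway lists. Among 7 tested by edgeR, 2 fell, 5 missed the threshold and none rose, while DESeq2 and limma-voom each also called 1 higher, ST14. By edgeR 3 of the 7 had an unadjusted p under 0.05. PLAU, the urokinase, had 2480, 2598 and 2411 CPM with TNF and 560, 671 and 705 CPM with LED (adjusted p = 0.00159 by edgeR). PLAT, the tissue plasminogen activator, known to cleave the CUB domain from PDGF-C, had 82.4, 88.6 and 99.7 CPM with TNF and 43.6, 34.5 and 45.6 CPM with LED (log2 -1.13 ± 0.18, edgeR adjusted p = 0.0146). The PLAT call was lost when TNF replicate 14 (0.0663), LED replicate 4 (0.0675) or LED replicate 6 (0.0602) was left out. FURIN, the convertase that trims the A and B chains, was at -0.17 on the log2 scale (adjusted p = 0.663), a gene chosen after its values were seen. Its sign turned without TNF replicate 8 (0.024). ST14, the membrane protease matriptase, was also chosen after its values were seen. It had 0, 0.0787 and 0 CPM with TNF, below the detection limit, and 0.632, 0.646 and 0.342 CPM with LED, and the groups did not overlap. Its adjusted p was 0.0652 by edgeR, 0.00245 by DESeq2, 0.0358 by limma-voom and 0.0321 by edgeR without TNF replicate 8. The list's median was -0.17.

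Signalling genes downstream of both receptor families showed few differences past the test. Of 30 tested adaptors and effectors edgeR called none (4 at an unadjusted p under 0.05), limma-voom none and DESeq2 2, both lower, and their median log2 fold change was -0.02. PLCG1, the phospholipase that binds activated FGF and PDGF receptors, had the lowest p, at 120 ± 14.6 CPM with TNF and 80.7 ± 8.00 with LED (log2 -0.57 ± 0.17, edgeR adjusted p = 0.0887). It was called by DESeq2 (adjusted p = 0.0312) and by edgeR without TNF replicate 8 and LED replicate 6 (0.0383). Of 12 feedback inhibitors edgeR called none (5 at an unadjusted p under 0.05, median 0.06), limma-voom none and DESeq2 2, both higher. Without TNF replicate 8 and LED replicate 6 edgeR called 3 higher and 1 lower, where its calls over all genes rose to 763 higher and 906 lower. DUSP5, a nuclear ERK phosphatase, had 33.5, 62.6 and 32.7 CPM with TNF and 90.3, 87.2 and 62.8 CPM with LED (0.90 ± 0.28, adjusted p = 0.0954), and it was called by DESeq2 (adjusted p = 0.0185) and by edgeR without TNF replicate 8 (1.27, adjusted p = 0.0270). Among 15 ERK-dependent transcription targets, 14 missed the edgeR threshold, 1 rose and none fell, with a median of 0.17. An unadjusted p under 0.05 by edgeR was found for 7 of these 15, against 22.7% of all tested genes. DESeq2 called 4 higher and limma-voom 1, and edgeR called 3 without TNF replicate 8 and LED replicate 6. The one that rose was EGR3, an early response factor, with 0.0359, 0.0394 and 0 CPM with TNF and 0.462, 0.348 and 0.456 CPM with LED (edgeR adjusted p = 0.0418). The TNF values are below the detection limit, and the call was lost in each single omission of a library (adjusted p 0.0734 to 0.143).

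**Figure D5:**
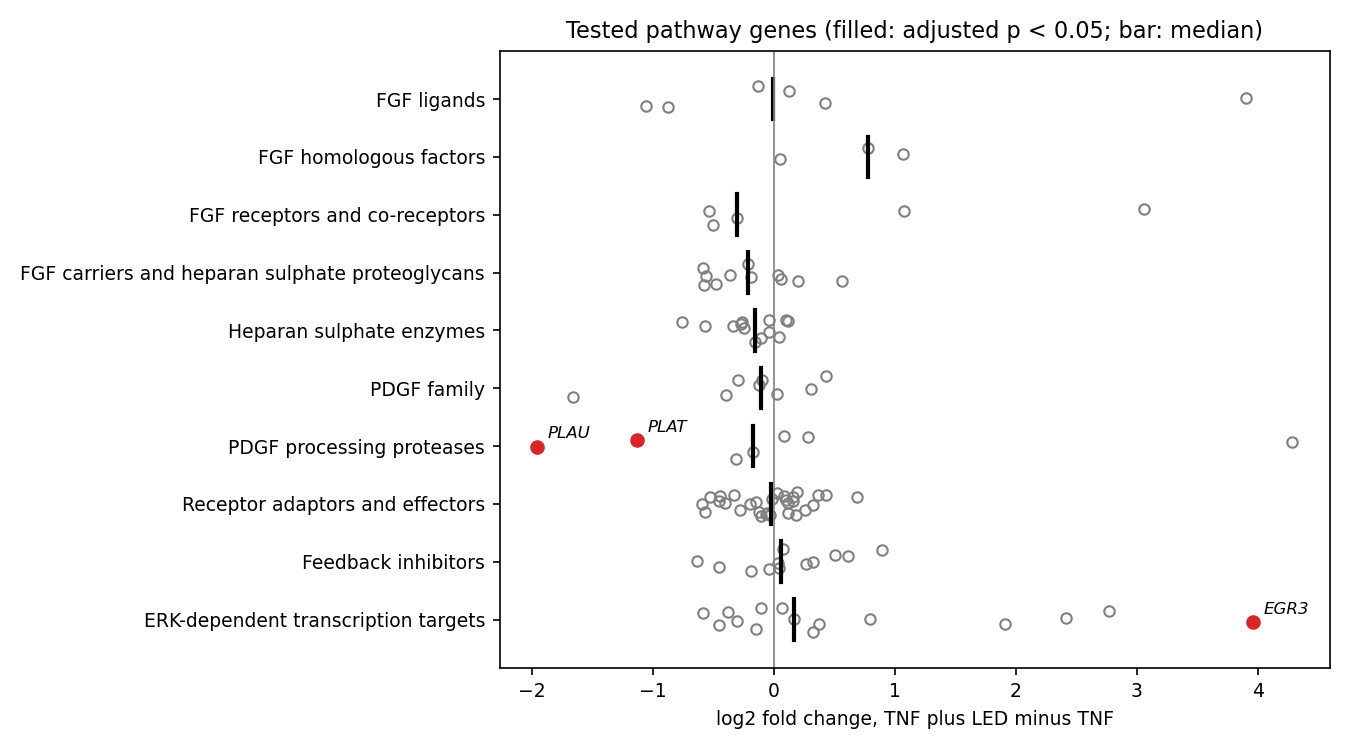
Log2 fold change, TNF plus LED minus TNF, of every tested gene in the 10 pathway lists. Filled red points passed the test (PLAU, PLAT and EGR3), open points did not, vertical offsets only separate the points, and black bars are list medians, which lie between -0.30 and 0.78.

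For PDGFB, the gene with the lowest p of the 10, the tested genes most alike in log2 CPM over the 6 libraries were ADAM19 (Pearson r 0.998), KIF24 (0.998) and NPR2 (0.996). They were the highest of 11898 genes with a mean of at least 1 CPM, of which 414 had an r over 0.95. With 6 libraries in 2 groups such values are common and are given as a description. ADAM19, a membrane metalloprotease, was lower with LED at an edgeR adjusted p of 0.0409 and KIF24, a kinesin, at 0.0364, while NPR2, a natriuretic peptide receptor, did not pass (0.0874).

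Library totals ran from 86000253 to 108074289 estimated counts, and between 14079 and 14943 genes were above 0. Of 12 fibroblast markers VIM, COL1A1, COL1A2 and COL6A1 were high in every library, with group means from 2045 CPM for COL6A1 to 13123 for COL1A1. Those of CDH11, PDPN, THY1, FAP, CD55, DCN and LUM ran lower, from 32.4 CPM for PDPN to 1062 for DCN, both with TNF. PRG4, which marks the joint lining, was under the detection limit. Of 5 T and B cell markers 4 were at 0. Of 4 platelet markers 2 were at 0, and their sum was 0.507 CPM or less in every library. Of 4 epithelial markers KRT18 was highest, with means of 31.4 CPM with TNF and 37.0 with LED. The epithelial sum was 34.3 to 41.1 CPM with TNF and 37.2 to 55.6 with LED. Of 4 endothelial markers CDH5 was at 0 and PECAM1 at a mean of 0.0389 CPM with TNF and 0 with LED, but TEK had 97.4 and 63.1 CPM, and their summed level was 78.1 to 112 CPM with TNF and 58.6 to 76.8 with LED. Of 5 macrophage markers PTPRC was at 0 in all TNF libraries with a mean of 0.0440 CPM with LED, but CD68 had 116 and 128 CPM, and the sum was 93.4 to 139 CPM with TNF and 115 to 155 with LED. Of 5 pericyte and smooth muscle markers, relevant because pericytes carry PDGFRB, MYH11 had means of 0.346 CPM with TNF and 0.338 with LED, and DES 0.0149 and 0.107. Their summed level, mostly CSPG4 and NOTCH3, was 329 to 535 CPM with TNF and 231 to 261 with LED, and NOTCH3 was called lower (log2 -0.77 ± 0.19, edgeR adjusted p = 0.0475). That call was lost without TNF replicate 14 or any 1 LED library (adjusted p 0.0982 to 0.174). RGS5 was higher in every LED library, at 4.63 CPM with TNF and 10.4 with LED on average (log2 1.16 ± 0.33), and did not pass (edgeR adjusted p = 0.0729). The part of these markers in the PDGF receptor values was not tested. Transcript counts of a culture cannot tell fewer expressing cells from less RNA per cell.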

How the data were processed

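The authors deposited 1 table of estimated counts per gene symbol, as whole numbers, for 6 RNA-seq libraries of MH7A cells (ribosomal RNA removed, random priming, per the labels' protocols). Tools listed in the submitters' processing notes, with no roles, are HISAT2, StringTie, bcl2fastq 2.0, limma and DESeq2, and the listed build is the mouse build mm10. No source used here gives the human build, the counter or the strand setting. Values from 1 to 7 equalled 4 or 5 in 67.2% of cases, so 1 fragment was taken as about 4 units, and totals of 21500063 to 27018572 fragments set the counting error.

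Groups came from the labels. Genes passing filterByExpr were tested with edgeR 4.0.16 in R 4.3.3 (TMM, robust quasi-likelihood F test, two-sided, Benjamini-Hochberg over all tested genes, threshold 0.05). The SE is the log2 fold change over the square root of F. The members and lists were chosen with earlier results of these data known. Named genes were the 10 members and, per list, up to 3 called genes with the lowest p or else the 1 lowest. EGR1, FURIN, ST14 and the markers were named outside this rule. Alternatives were other scalings, filters, DESeq2 1.42.0, limma-voom (limma 3.58.1), non-robust dispersions, counts divided by 4, omitted libraries and a threshold of 0.10. Tested on simulated data for 13794 genes, the fit recovered 61 of 100 changes of 1 (log2) and 99 of 100 changes of 2, with 14 false calls. The recovery at levels as low as those of PDGFB, EGR3, ST14 and FGF18 was not tested. No 2 libraries were copies (chi-square per degree of freedom at least 27.9 within groups). Exon lengths and overlaps came from GENCODE 29, promoter windows from RefSeq (GRCh38.p14) for 7 of the 10 genes. FGFR1, PDGFB and PDGFC had no window there. The comparison of protein sequences was not made. Since the labels name no separate cultures, p-values reflect the variation among these samples alone, and that may be technical.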

Additional observations from a re-analysis of the deposited data

How the results depend on the processing

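No paired analysis was possible because the groups share no sample numbers. Over all genes, 336 were higher and 377 lower with LED. These counts became 874 and 879 with DESeq2, 695 and 776 at a threshold of 0.10, and 763 and 906 without TNF replicate 8 and LED replicate 6. In omissions of 1 library the higher calls ranged from 59 to 314 and the lower calls from 21 to 423. None of the 10 growth factor and receptor genes was called lower in the test as reported, against 2 with DESeq2, 2 at a threshold of 0.10, 1 with counts divided by 4, 1 without TNF replicate 8 and LED replicate 6, and 0 to 1 in omissions of 1 library. None was called higher in any alternative. FGF5 was called with DESeq2 (adjusted p = 0.00795) and without both of those libraries (0.00842), PDGFB with DESeq2 (0.00721) and with counts divided by 4 (0.0443). Signs turned for FGF1 (0.20 without TNF replicate 8, 0.15 without both libraries, and -0.31 to 0.20 over omissions of 1 library), FGF7 (-0.24 and -0.038 likewise, -0.11 without LED replicate 10, and -0.24 to 0.38 over omissions), PDGFRA (-0.27 and -0.26 likewise, -0.12 without LED replicate 10, -0.015 with library totals only, and -0.27 to 0.25 over omissions) and PDGFRB (0.024 without TNF replicate 14, and -0.20 to 0.024 over omissions), and for the protease gene FURIN (0.024 without TNF replicate 8, 0.044 without both libraries, and -0.33 to 0.024 over omissions). The cause was not tested. FGF2, FGF5, FGFR1, PDGFA, PDGFB and PDGFC kept their sign in every alternative that gave a value. PDGFB gave none under the filter on 1 CPM. Another scaling moved the median of all genes by at most 0.04 on the log2 scale. For PDGFB, the observed spread exceeded counting error in the TNF libraries but not in the LED libraries. Counting error was 13.9% to 19.2% in the TNF libraries and 26.7% to 31.6% in the LED libraries. The observed spread (SD over mean) was 36.6% with TNF and 24.9% with LED.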
